A study of Homo sapiens with 6 samples.

Results

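Hypoxia and glycolysis genes are described here as 38 genes of 31348 in the deposited table, picked by gene name and not by a cutoff on any measured value. Earlier results of these data were known when they were chosen. They comprise 2 HIF alpha factors, 2 HIF prolyl hydroxylases, 10 known targets of hypoxia, 2 enzymes that make or remove the bisphosphate activator of phosphofructokinase, 2 glucose transporters, 15 glycolytic enzymes, 3 genes acting on lactate or pyruvate, and 2 lactate transporters. RNA sequencing was carried out on TPC1, an established RET/PTC-rearranged line from a human papillary thyroid cancer, after transfection with siSRPX2-1 (3 libraries, replicates 1 to 3) or with siControl (3 libraries, replicates 1 to 3). The genotype of all 6 libraries is labelled wild type, and a single siRNA in a single line is compared. The labels give an adipogenic differentiation treatment, day 2 and DMEM for every sample, while the methods of the study give RPMI-1640 medium, siRNA transfection and another time. No source states the oxygen level or what a replicate number stands for, and the study calls the libraries of a group biological repeats.

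Cells sense oxygen through the HIF alpha proteins HIF1A and EPAS1. When oxygen is present, the prolyl hydroxylases EGLN1 and EGLN3 mark these proteins for degradation, so their activity is set largely at the protein level and is not read from their own mRNA. Stabilized HIF binds short DNA elements and switches on genes for angiogenesis, pH regulation, mitophagy, glucose uptake and glycolysis. Tumour cells also run glycolysis with oxygen present, and GAPDH, one of its enzymes, is the RT-qPCR reference gene of the study.

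SRPX2, the targeted gene, had 140, 157 and 263 reads in siSRPX2-1 replicates 1, 2 and 3, against 243, 335 and 308 reads in siControl replicates 1, 2 and 3. In FPKM (fragments per kilobase of transcript, scaled to library size) the highest siSRPX2-1 library, replicate 3 with 0.462, lay above the lowest siControl library, replicate 1 with 0.448, so the groups overlapped. Within each replicate number SRPX2 was lower after siSRPX2-1. The values were 0.219 against 0.448 FPKM in replicate 1, 0.257 against 0.545 in replicate 2 and 0.462 against 0.511 in replicate 3. Its mean lay under the 0.5 FPKM needed for the main fits, so SRPX2 was not tested in them. Total counts per library ranged from 63824315 to 75828542. Libraries of the same replicate number deviated together from their siRNA means (correlations of 0.552, 0.731 and 0.602 over all tested genes), and the highest correlation between different numbers was 0.0693. Deviations from a mean sum to 0, so high correlations at the same number push those between different numbers down. The low values are therefore no separate support. Mitochondrial mRNAs took 3.34% to 3.95% of the reads in siSRPX2-1 libraries and 3.51% to 4.24% in siControl libraries. Markers of cell types moved with replicate 2 in both directions. Of 6 epithelial markers 3 passed a mean of 0.5 FPKM, and the summed level of the list was 208 and 162 FPKM in the replicate 2 libraries of siSRPX2-1 and siControl, against 96.3 to 114 FPKM in the other 4 libraries. Against replicates 1 and 3, the keratins KRT18 and KRT8 were higher in replicate 2 (log2 fold change 0.89 and 0.65, adjusted p = 7.80e-05 and 0.000195, edgeR), while KRT7 was lower (−1.29, adjusted p = 5.11e-05, edgeR). Of 8 thyroid markers 4 were measured here and 2 passed the filter, PAX8 and FOXE1, which were lower in replicate 2 (−0.39 and −0.50, adjusted p = 0.00109 and 0.00285, edgeR), with sums of 85.2 and 89.9 FPKM in the replicate 2 libraries of siSRPX2-1 and siControl, against 100.9 to 115 FPKM in the other 4. Of 6 fibroblast and 6 immune markers 1 each passed the filter, LUM and CD68, also lower in replicate 2 (−1.17 and −0.62, adjusted p = 0.00118 and 0.00617, edgeR). The fibroblast sums were 2.59 and 2.75 FPKM in replicate 2 of siSRPX2-1 and siControl, against 4.39 to 8.49 FPKM in the other 4 libraries, and the immune sums were 8.96 to 13.1 FPKM in siSRPX2-1 libraries and 4.94 to 8.71 FPKM in siControl libraries. Of 8 adipocyte markers 5 were measured here, with sums of 4.12 to 5.68 FPKM in siSRPX2-1 libraries and 3.20 to 5.57 FPKM in siControl libraries, and CFD and PPARG, the 2 that passed the filter, were lower in replicate 2 (−1.02 and −0.45, adjusted p = 0.0205 and 0.0225, edgeR). Of 5 endothelial markers 0 passed 0.5 FPKM. None of the 9 markers tested had an adjusted p under 0.05 for replicate 1 against replicate 3 (the lowest was that of KRT8, 0.0750, edgeR). The part of these differences in the results below was not tested.

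As a sum, though not each by itself, the 38 genes followed the replicate number, and in such a sum abundant genes such as GAPDH weigh most. Together they took 3.31%, 2.83% and 2.00% of all reads in siSRPX2-1 replicates 1, 2 and 3, and 3.33%, 2.86% and 1.97% in siControl replicates 1, 2 and 3. The shares of the 2 siRNA groups were thus nearly the same at each number, while replicate 3 libraries were lowest in both groups. For the 17 glycolytic and lactate dehydrogenase genes the share of all FPKM was 2.66%, 2.36% and 1.65% after siSRPX2-1, and 2.51%, 2.32% and 1.59% after siControl. In bulk samples, fewer cells of a type and less RNA per cell cannot be told apart.

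**Figure D1:**
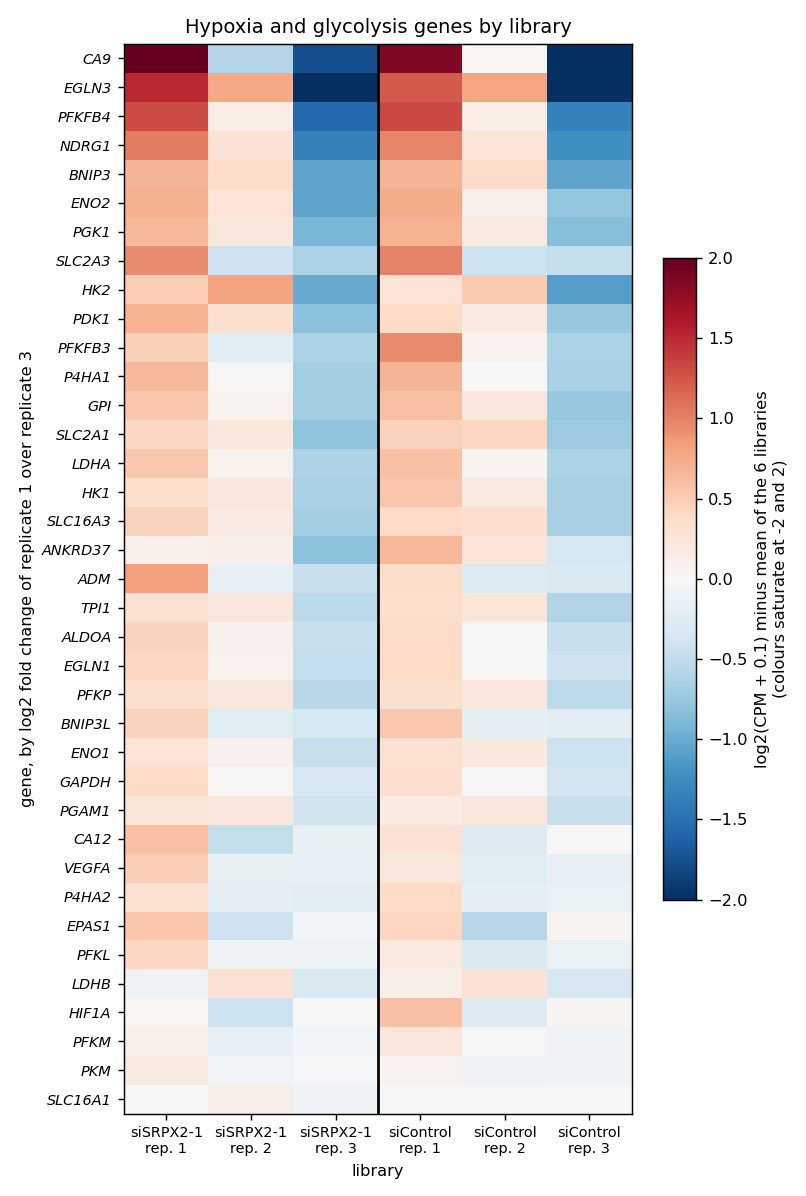
Heat map of the 37 tested genes (rows, ordered by log2 fold change of replicate 1 over replicate 3) in the 6 libraries (columns). Colour is log2(CPM + 0.1) minus the mean of the 6 libraries, red above and blue below it. For 27 genes, CA9 and SLC2A3 among them, both replicate 3 libraries are below the other 4 (16.8% of all tested genes). CA9 and SLC2A3 passed the filter only through replicate 1.

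Replicate 1 was compared with replicate 3 with edgeR's quasi-likelihood test, with the siRNA as a covariate and 2 libraries for each number. Its p-values rest on how far replicate differences varied between the siRNA groups, as no replicate number was itself repeated. A gene was called at an adjusted p under 0.05 (Benjamini-Hochberg over the 13317 genes whose FPKM averaged 0.5 or more). Of the 38 genes 37 passed this filter, and ALDOC did not. Replicate 1 was higher for 33 of the 37 (8.81% of all tested genes were higher) and lower for 0 (7.3% of all tested genes were lower). CA9 and SLC2A3 passed the filter only through the replicate 1 libraries in which they are high, so the filter favoured their calls in this comparison, and these are no support. Of the 35 genes whose replicate 2 and 3 libraries alone averaged 0.5 FPKM or more, 31 were higher and 0 lower, and their median was 0.90 on the log2 scale. At an unadjusted p under 0.05 edgeR gave 36 of the 37 higher (16.6% of all tested genes) and 0 lower (15.4%), and DESeq2 called 34 higher (9.72%) and 0 lower (8.92%). All 37 fold changes were positive, against 49.9% of all tested genes, and their median log2 fold change was 0.99, beside −0.00 over all tested genes. PFKM, HIF1A, PKM and SLC16A1 were the 4 that did not pass.

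In TMM-normalized CPM (reads scaled to the effective library size, not to length) both replicate 1 libraries lay above both replicate 3 libraries for 35 of the 37 genes, all but HIF1A and SLC16A1 (30.3% of all tested genes). For 22 genes both replicate 1 libraries lay above both replicate 2 libraries, and these above both replicate 3 libraries (2.81% of all tested genes). For 27 genes both replicate 3 libraries were below the other 4 (16.8% of all tested genes). CA9 and SLC2A3, which passed the filter only through replicate 1, are among the genes in each of these counts and add no support. The difference was seen within each siRNA group. The median log2 difference of replicate 1 over replicate 3 was 0.96 within siSRPX2-1 and 0.96 within siControl.

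**Figure D2:**
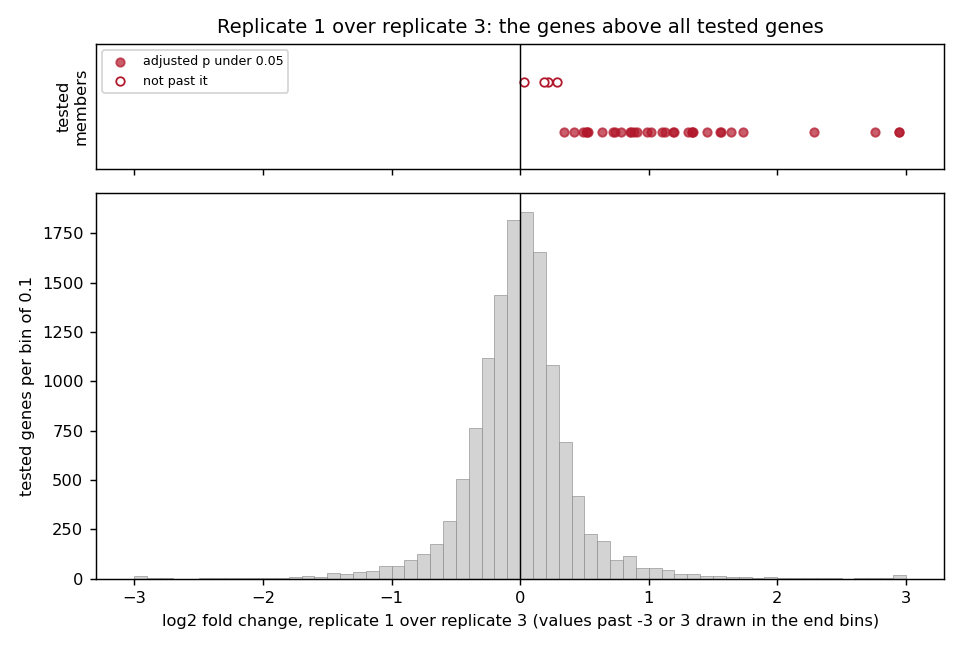
Log2 fold change of replicate 1 over replicate 3 for the 37 tested genes (upper strip, filled where the adjusted p was under 0.05, with no meaning to height) above the histogram of all 13317 tested genes in bins of 0.1. All 37 points lie right of 0, with a median of 0.99, while the histogram is centred on 0. The folds of CA9 and EGLN3 exceed 3 and are drawn at the right end.

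HIF1A, the alpha subunit of the main hypoxia factor, was the most abundant regulator. It had 90.8, 69.6 and 93.0 FPKM in siSRPX2-1 replicates 1, 2 and 3, and 130.1, 78.9 and 91.7 FPKM in siControl replicates 1, 2 and 3. The siControl replicate 1 library was highest, both replicate 2 libraries were lowest, and replicate 1 overlapped replicate 3. Its log2 fold change of replicate 1 over replicate 3 was 0.29 (standard error 0.112, adjusted p = 0.118, edgeR). This call depended on single libraries, since it was 0.50 without siSRPX2-1 replicate 1 (adjusted p = 0.00877, edgeR) and 0.29 without siControl replicate 2 (adjusted p = 0.0440, edgeR), and without the siControl replicate 1 library it was 0.07 (adjusted p = 0.702, edgeR). EPAS1, the related alpha subunit, had 20.4, 11.2 and 14.1 FPKM in siSRPX2-1 replicates 1, 2 and 3, and 18.5, 10.1 and 14.6 FPKM in siControl replicates 1, 2 and 3. For EPAS1 the replicate 1 libraries were highest and the replicate 2 libraries lowest in both groups, and replicate 1 was higher than replicate 3 (log2 fold change 0.49, standard error 0.0802, adjusted p = 0.00754, edgeR).

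The prolyl hydroxylases differed in the size of the change. EGLN3, which is itself a known HIF target, had 3.95, 2.48 and 0.308 FPKM in siSRPX2-1 replicates 1, 2 and 3, and 3.19, 2.55 and 0.314 FPKM in siControl replicates 1, 2 and 3. Both replicate 3 libraries lay far below the other 4, and its log2 fold change of replicate 1 over replicate 3 was 3.55 (standard error 0.153, adjusted p = 1.98e-05, edgeR). EGLN1, the more abundant hydroxylase, had 30.6, 25.5 and 17.0 FPKM after siSRPX2-1 and 29.5, 24.6 and 17.2 FPKM after siControl in replicates 1, 2 and 3. Its replicate 1 libraries were also the highest, with a smaller log2 fold change of 0.86 (standard error 0.0685, adjusted p = 0.000285, edgeR).

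Of the 10 hypoxia targets 9 passed the filter also without the replicate 1 libraries. These 9 were higher in replicate 1 than in replicate 3 (8.81% of all tested genes were higher), with log2 fold changes of 0.51 to 2.29. CA9, a membrane carbonic anhydrase known as a sensitive hypoxia marker, was counted 284, 19 and 4 times in siSRPX2-1 replicates 1, 2 and 3, and 113, 34 and 0 times in siControl replicates 1, 2 and 3. Within siSRPX2-1 the rate of replicate 1 was 64.1 times that of replicate 3 (95% exact interval 24.7 to 237, counting error only). Within siControl it was at least 41.3-fold higher, computed against a floor of 3 reads in the replicate 3 library. Its fitted log2 fold change of 6.53 rests on these few reads in replicate 3 and is no bound, and the gene passed the filter only through replicate 1. The gene ARHGEF39 on the opposite strand had 1800% of the reads of CA9, and the strand used in counting is not stated. ARHGEF39 itself had a log2 fold change of −0.12 (adjusted p = 0.697, edgeR) in the same comparison.

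NDRG1, a stress-responsive gene, had 31, 19.9 and 6.29 FPKM in siSRPX2-1 replicates 1, 2 and 3, and 29.8, 19.9 and 6.57 FPKM in siControl replicates 1, 2 and 3. BNIP3, a receptor that marks mitochondria for mitophagy, had 85.3, 74.2 and 26.9 FPKM after siSRPX2-1 and 84.4, 75.1 and 25.8 FPKM after siControl in the same order. Both genes were lowest in replicate 3 of either group, and the siRNA groups overlapped. Their log2 fold changes of replicate 1 over replicate 3 were 2.29 for NDRG1 (standard error 0.0734, adjusted p = 4.31e-06, edgeR) and 1.74 for BNIP3 (standard error 0.0661, adjusted p = 1.02e-05, edgeR). BNIP3L, the paralogue with the same role, had 64.0, 41.4 and 38 FPKM after siSRPX2-1 and 66.3, 43.3 and 40.3 FPKM after siControl. For BNIP3L the replicate 1 libraries stood apart, while replicates 2 and 3 were close (log2 fold change of replicate 2 over replicate 3 of 0.06, adjusted p = 0.498, edgeR).

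VEGFA, the main angiogenic growth factor, had 44.6, 30.4 and 30.0 FPKM in siSRPX2-1 replicates 1, 2 and 3, and 36.9, 28.9 and 28.6 FPKM in siControl replicates 1, 2 and 3. Its replicate 1 libraries were the highest, and its log2 fold change of replicate 1 over replicate 3 was 0.52 (standard error 0.0796, adjusted p = 0.00537, edgeR). CA12, another membrane carbonic anhydrase, had 65.8, 33.1 and 41.2 FPKM after siSRPX2-1 and 52.0, 38.8 and 43.2 FPKM after siControl. Replicate 1 was again highest, and here replicate 2 was lowest. The CA12 fold change of 0.53 (adjusted p = 0.0239, edgeR) lost its call without siSRPX2-1 replicate 1 (adjusted p = 0.0686), without siSRPX2-1 replicate 3 (0.119) or without siControl replicate 3 (0.0572).

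The collagen prolyl hydroxylase subunit P4HA1 had 44.7, 30.7 and 18.4 FPKM in siSRPX2-1 replicates 1, 2 and 3, and 44.8, 30.1 and 18.3 FPKM in siControl replicates 1, 2 and 3. Its paralogue P4HA2 changed less (log2 fold change 0.51, against 1.34 for P4HA1), and its reads could be mixed with those of PDLIM4 on the opposite strand, which had 97.5% of its reads and a log2 fold change of −0.38 (adjusted p = 0.0823, edgeR). ADM, the gene of the vasodilator peptide adrenomedullin, was at 6.90 to 16.1 FPKM after siSRPX2-1 and at 7.4 to 11.6 FPKM after siControl. ANKRD37, an ankyrin repeat gene at 0.492 to 1.02 FPKM after siSRPX2-1 and 0.676 to 1.38 FPKM after siControl, was the least certain target. Its log2 fold change of 1.02 (adjusted p = 0.0456, edgeR) lost its call without siSRPX2-1 replicate 1 (adjusted p = 0.0830), without siSRPX2-1 replicate 3 (0.166), without siControl replicate 1 (0.252) and without siControl replicate 3 (0.179). UFSP2, on the opposite strand of ANKRD37, had 1110% of its reads and a log2 fold change of 0.24 (adjusted p = 0.193, edgeR).

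Because HIF binds a short core, the promoters were read for the letters ACGTG and GCGTG on both strands, in the 250 bases before each RefSeq start (GRCh38.p14). The 4 called genes with the largest fold changes that had a window are shown, with PGK1 and LDHA as glycolytic examples chosen after their values were seen. Capitals mark each match. The windows are chr9:35673678-35673927 on the plus strand for CA9, chr14:33951075-33951324 on the minus strand for EGLN3, chr3:48556804-48557053 on the minus strand for PFKFB4, chr10:131981924-131982173 on the minus strand for BNIP3, chrX:78103998-78104247 on the plus strand for PGK1 and chr11:18394313-18394562 on the plus strand for LDHA.
CA9: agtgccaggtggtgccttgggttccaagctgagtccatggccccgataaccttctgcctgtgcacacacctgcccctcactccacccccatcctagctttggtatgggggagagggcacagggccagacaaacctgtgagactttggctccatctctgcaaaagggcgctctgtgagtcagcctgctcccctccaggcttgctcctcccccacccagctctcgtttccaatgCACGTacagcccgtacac
EGLN3: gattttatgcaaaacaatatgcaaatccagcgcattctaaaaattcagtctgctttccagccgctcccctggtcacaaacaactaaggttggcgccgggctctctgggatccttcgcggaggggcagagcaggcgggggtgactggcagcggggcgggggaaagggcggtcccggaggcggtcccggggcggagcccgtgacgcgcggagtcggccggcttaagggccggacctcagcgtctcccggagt
PFKFB4: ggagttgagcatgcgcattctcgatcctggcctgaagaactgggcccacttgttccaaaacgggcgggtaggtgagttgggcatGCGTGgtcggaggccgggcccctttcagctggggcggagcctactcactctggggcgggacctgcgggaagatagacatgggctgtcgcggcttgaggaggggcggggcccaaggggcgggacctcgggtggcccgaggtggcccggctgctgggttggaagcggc
BNIP3: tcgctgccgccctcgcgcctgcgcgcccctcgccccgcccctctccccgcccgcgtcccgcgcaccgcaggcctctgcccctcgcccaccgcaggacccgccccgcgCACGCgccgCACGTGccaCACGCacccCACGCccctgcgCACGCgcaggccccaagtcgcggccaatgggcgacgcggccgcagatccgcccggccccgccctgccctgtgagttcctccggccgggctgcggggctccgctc
PGK1: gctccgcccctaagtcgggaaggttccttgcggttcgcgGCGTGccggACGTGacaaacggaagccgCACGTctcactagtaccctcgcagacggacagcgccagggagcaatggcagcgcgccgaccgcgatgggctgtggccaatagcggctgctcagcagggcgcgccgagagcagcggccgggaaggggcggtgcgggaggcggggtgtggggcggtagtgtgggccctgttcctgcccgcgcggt
LDHA: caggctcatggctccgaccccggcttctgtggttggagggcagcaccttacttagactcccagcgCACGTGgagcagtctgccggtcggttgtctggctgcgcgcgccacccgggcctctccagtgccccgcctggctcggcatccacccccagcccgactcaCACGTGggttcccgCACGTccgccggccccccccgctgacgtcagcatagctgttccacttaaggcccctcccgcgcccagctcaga

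The letters varied widely among genes that moved together. EGLN3, with the second largest fold change, had 0 matches, CA9 and PFKFB4 had 1 each, and LDHA had 5, where CACGTG counts as 2 because it reads ACGTG on both strands. LDHA had 2 windows, and the one with the most matches is shown, while the other genes shown had 1 window each. BNIP3 held 2 matches of ACGTG and 4 of GCGTG, in a run before its start. Windows were found for 33 of the 38 genes, and VEGFA, SLC2A3, NDRG1, BNIP3L and SLC16A1 had none. ACGTG was present in 36.7% of the 60 windows of these genes and in 18.5% of all 35116 windows. GCGTG was present in 31.7% of their windows and in 32.2% of all windows, and either one in 58.3% and 43.2%. Windows were uneven, with 7 each for HK1 and PFKM. Counted per gene, with a match in any window, ACGTG was present in 57.6% of the 33 genes and 21.7% of all genes with a window. By the same count GCGTG was present in 51.5% and 36.2%, and either one in 81.8% and 47.4%. The 33 genes had 60 windows, and all 27305 genes with a window had 35116. More windows per gene favour the 33 genes in a count per gene, so its shares are not alike on the 2 sides. A match is a run of letters and not a measured binding site.

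Glucose enters through SLC2A1, the broadly expressed transporter, and SLC2A3, its high-affinity relative. SLC2A1 had 28.4, 26.5 and 12.8 FPKM in siSRPX2-1 replicates 1, 2 and 3, and 28.8, 30.6 and 13 FPKM in siControl replicates 1, 2 and 3. SLC2A3 was low, at 1.22, 0.488 and 0.417 FPKM after siSRPX2-1 and 1.24, 0.489 and 0.447 FPKM after siControl. The genes differed in which libraries stood apart, since replicate 3 was low for SLC2A1 and replicate 1 was high for SLC2A3. Their log2 fold changes of replicate 1 over replicate 3 were 1.20 for SLC2A1 (standard error 0.0693, adjusted p = 7.25e-05, edgeR) and 1.55 for SLC2A3 (standard error 0.204, adjusted p = 0.00297, edgeR). SLC2A3 was below 0.5 FPKM in all 4 replicate 2 and 3 libraries and entered the test through replicate 1 alone, so its call is no support.

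Of the 14 tested glycolytic enzymes 12 were higher in replicate 1 than in replicate 3 (8.81% of all tested genes were higher). The median log2 fold change of the 14 was 0.87. HK2, the hexokinase induced in many tumours, had 34.3, 44.5 and 12.6 FPKM in siSRPX2-1 replicates 1, 2 and 3, and 28.7, 37.0 and 11.2 FPKM in siControl replicates 1, 2 and 3. It was highest in replicate 2 of both groups and lowest in replicate 3. The housekeeping hexokinase HK1 had 37.1, 36.2 and 19.3 FPKM after siSRPX2-1 and 42.2, 35.1 and 18.3 FPKM after siControl, so replicate 3 was lowest in both groups. For HK1 replicate 2 was also lower than replicate 1 (log2 fold change −0.26, adjusted p = 0.0298, edgeR). The log2 fold changes of replicate 1 over replicate 3 were 1.45 for HK2 (adjusted p = 3.69e-05, edgeR) and 1.12 for HK1 (adjusted p = 0.000192, edgeR).

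The phosphofructokinases, which catalyse the committed step, did not move alike. PFKP, the platelet form, had 70.2, 70.0 and 40.3 FPKM in siSRPX2-1 replicates 1, 2 and 3, and 69.2, 70.1 and 39.4 FPKM in siControl replicates 1, 2 and 3. Only replicate 3 was low for this form, with a log2 fold change of replicate 1 over replicate 3 of 0.86 (adjusted p = 0.000258, edgeR). The liver form PFKL had 25.6, 19.6 and 18.8 FPKM after siSRPX2-1 and 21.7, 16.8 and 17.7 FPKM after siControl, with a log2 fold change of 0.41 (adjusted p = 0.0101, edgeR, and 0.0787 without siSRPX2-1 replicate 3). The muscle form PFKM stayed between 9.22 and 10.5 FPKM after siSRPX2-1 and between 9.41 and 11.3 FPKM after siControl (log2 fold change 0.22, adjusted p = 0.0720, edgeR). SENP1, on the opposite strand of PFKM, had 30.9% of its reads.

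PFKFB4 and PFKFB3, which set the level of the bisphosphate that activates phosphofructokinase, were both higher in replicate 1. PFKFB4 had 15.4, 7.34 and 2.23 FPKM in siSRPX2-1 replicates 1, 2 and 3, and 15.4, 7.44 and 2.46 FPKM in siControl replicates 1, 2 and 3. The 3 replicate numbers separated completely, and the log2 fold change of replicate 1 over replicate 3 was 2.76 (standard error 0.0850, adjusted p = 4.31e-06, edgeR). PFKFB3 had 27.2, 17.8 and 13.3 FPKM after siSRPX2-1 and 37.2, 22 and 12.7 FPKM after siControl, with a log2 fold change of 1.34 (standard error 0.106, adjusted p = 0.000285, edgeR).

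Among the other enzymes PGK1, which makes the first ATP of the payoff phase, had 189, 148 and 66.5 FPKM in siSRPX2-1 replicates 1, 2 and 3, and 190.2, 145 and 66.7 FPKM in siControl replicates 1, 2 and 3. Its log2 fold change of 1.56 (standard error 0.0718, adjusted p = 2.91e-05, edgeR) was close to that of ENO2, the neuronal enolase, at 1.64 (standard error 0.104, adjusted p = 0.000120, edgeR). ENO2 had 27.5, 21.4 and 8.45 FPKM after siSRPX2-1 and 27.6, 19.2 and 9.83 FPKM after siControl. The ubiquitous enolase ENO1 was far more abundant, with 828, 767 and 523 FPKM after siSRPX2-1 and 837, 851 and 511 FPKM after siControl, and changed less (log2 fold change 0.74, adjusted p = 0.00138, edgeR). GPI, ALDOA, TPI1 and PGAM1, which carry out other steps of glycolysis, had log2 fold changes of 1.31, 0.88, 0.90 and 0.63. ALDOA had 201, 165 and 111 FPKM after siSRPX2-1 and 187, 155 and 107 FPKM after siControl, while the brain aldolase ALDOC was at 0.119 to 0.149 FPKM after siSRPX2-1 and at 0.0590 to 0.168 FPKM after siControl and was not tested. PKM, the pyruvate kinase, varied little, between 292 and 324 FPKM after siSRPX2-1 and between 274 and 297 FPKM after siControl (log2 fold change 0.18, adjusted p = 0.144, edgeR).

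At the end of the pathway LDHA, the lactate dehydrogenase subunit tied to lactate production, had 905, 696 and 427 FPKM in siSRPX2-1 replicates 1, 2 and 3, and 925, 691 and 407 FPKM in siControl replicates 1, 2 and 3. Its log2 fold change of replicate 1 over replicate 3 was 1.18 (standard error 0.0809, adjusted p = 0.000162, edgeR), with the replicate numbers fully separated. LDHB, the subunit of oxidative tissues, had 215, 293 and 193 FPKM after siSRPX2-1 and 242, 297 and 181 FPKM after siControl, and was highest in replicate 2. Its fold change of 0.34 (adjusted p = 0.0264, edgeR) lost its call without siSRPX2-1 replicate 3 (adjusted p = 0.0618), siControl replicate 1 (0.135) or siControl replicate 3 (0.229). PDK1, a pyruvate dehydrogenase kinase, had a log2 fold change of 1.34 (standard error 0.0935, adjusted p = 0.000180, edgeR). SLC16A3, the lactate exporter of glycolytic cells, had 52.6, 45.8 and 25.1 FPKM after siSRPX2-1 and 50.0, 51.7 and 24.3 FPKM after siControl, so replicate 3 was lowest (log2 fold change 1.11, standard error 0.0764, adjusted p = 0.000173, edgeR). CSNK1D, on the opposite strand of SLC16A3, had 34.0% of its reads and a log2 fold change of 0.02 (adjusted p = 0.834, edgeR). SLC16A1, the more general carrier, stayed within 31.4 to 36.4 FPKM after siSRPX2-1 and 30.9 to 33.3 FPKM after siControl (log2 fold change 0.03, standard error 0.0724, adjusted p = 0.807, edgeR).

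**Figure D3:**
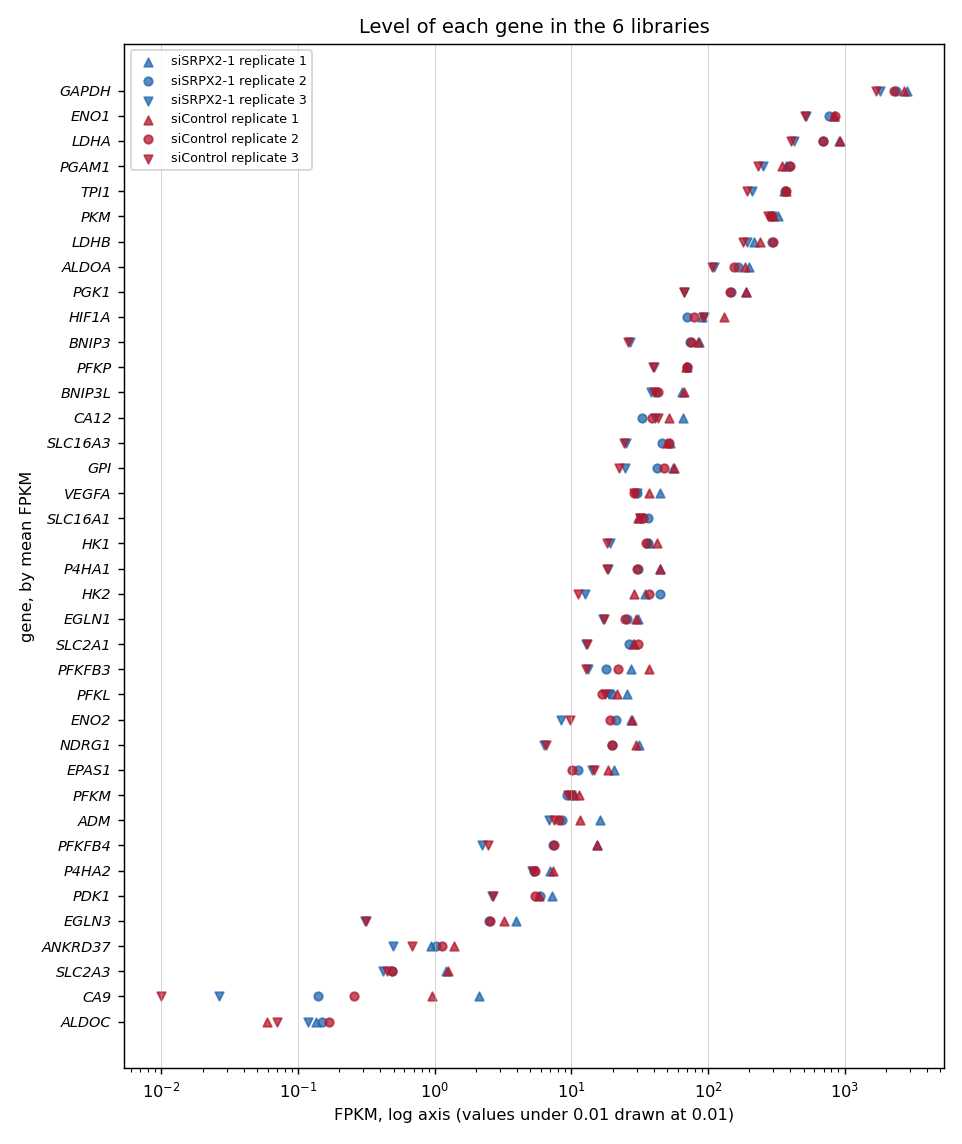
Level of all 38 genes in FPKM (log axis, values under 0.01 drawn at 0.01), ordered by mean. Triangles up, circles and triangles down are replicates 1, 2 and 3, blue for siSRPX2-1 and red for siControl. For genes such as PGK1, BNIP3 and PFKFB4 blue and red symbols of a replicate number nearly coincide while the numbers lie apart.

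GAPDH, the enzyme used as reference gene, was the most abundant of the 38 and had rank 13 of all genes by mean FPKM. It had 2864, 2357 and 1813 FPKM in siSRPX2-1 replicates 1, 2 and 3, and 2706, 2284 and 1687 FPKM in siControl replicates 1, 2 and 3. Its mean was 2345 ± 525 FPKM after siSRPX2-1 and 2226 ± 512 FPKM after siControl (SD, n = 3 each). The siRNA groups overlapped and the replicate numbers separated. The log2 fold change was 0.72 for replicate 1 over replicate 3 (standard error 0.0815, adjusted p = 0.00150, edgeR), and 0.06 for siSRPX2-1 over siControl (standard error 0.256, adjusted p = 0.99997, edgeR). Counting each library relative to its GAPDH reads moved the median of all tested genes to −0.72, from −0.00 with TMM. On that scale 18 of the other 36 genes were higher in replicate 1 (0.984% of all tested genes) and 9 were lower (84.2% of all tested genes). The scaling moves every gene by about the fold of GAPDH itself, so nothing is read from these counts. Genes whose fold turned negative included HIF1A at −0.43, VEGFA at −0.20 and PKM at −0.54.

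Isoenzyme shares, given as a percent of the FPKM of the family, followed the replicate number in several families, the HIF alpha pair and the aldolases excepted. LDHA made up 80.8%, 70.4% and 68.9% of lactate dehydrogenase in siSRPX2-1 replicates 1, 2 and 3, and 79.3%, 70.0% and 69.2% in siControl replicates 1, 2 and 3. HK2 made up 48.1%, 55.2% and 39.4% of hexokinase after siSRPX2-1 and 40.5%, 51.4% and 38% after siControl. The HK2 share was thus highest in replicate 2 of either group. PFKP held 58.4% to 70.9% of phosphofructokinase after siSRPX2-1 and 59.2% to 72.2% after siControl, and was lowest in replicate 3 of both. SLC16A3 held 62.6%, 55.7% and 44.4% of the lactate transporter pair after siSRPX2-1 and 61.8%, 60.8% and 43.5% after siControl. SLC16A3 was therefore the larger part in replicates 1 and 2, and SLC16A1 in replicate 3. This order holds per length only, since by reads not divided by length SLC16A3 was the larger part in every library, with 58.2% and 57.3% in replicate 3 of siSRPX2-1 and siControl. BNIP3 was the larger part of its pair in replicates 1 and 2 (57.2% and 64.2% after siSRPX2-1, 56.0% and 63.5% after siControl) and the smaller part in replicate 3 (41.5% and 39.0%). PFKFB4 held 36.1%, 29.2% and 14.4% of its pair after siSRPX2-1 and 29.2%, 25.3% and 16.2% after siControl. HIF1A made up 81.6%, 86.2% and 86.8% of the HIF alpha pair after siSRPX2-1 and 87.6%, 88.7% and 86.3% after siControl, in no shared order. ENO1 and ALDOA made up nearly all of their families, with lowest shares of 96.8% and 99.9%. These shares were described and not tested.

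**Figure D4:**
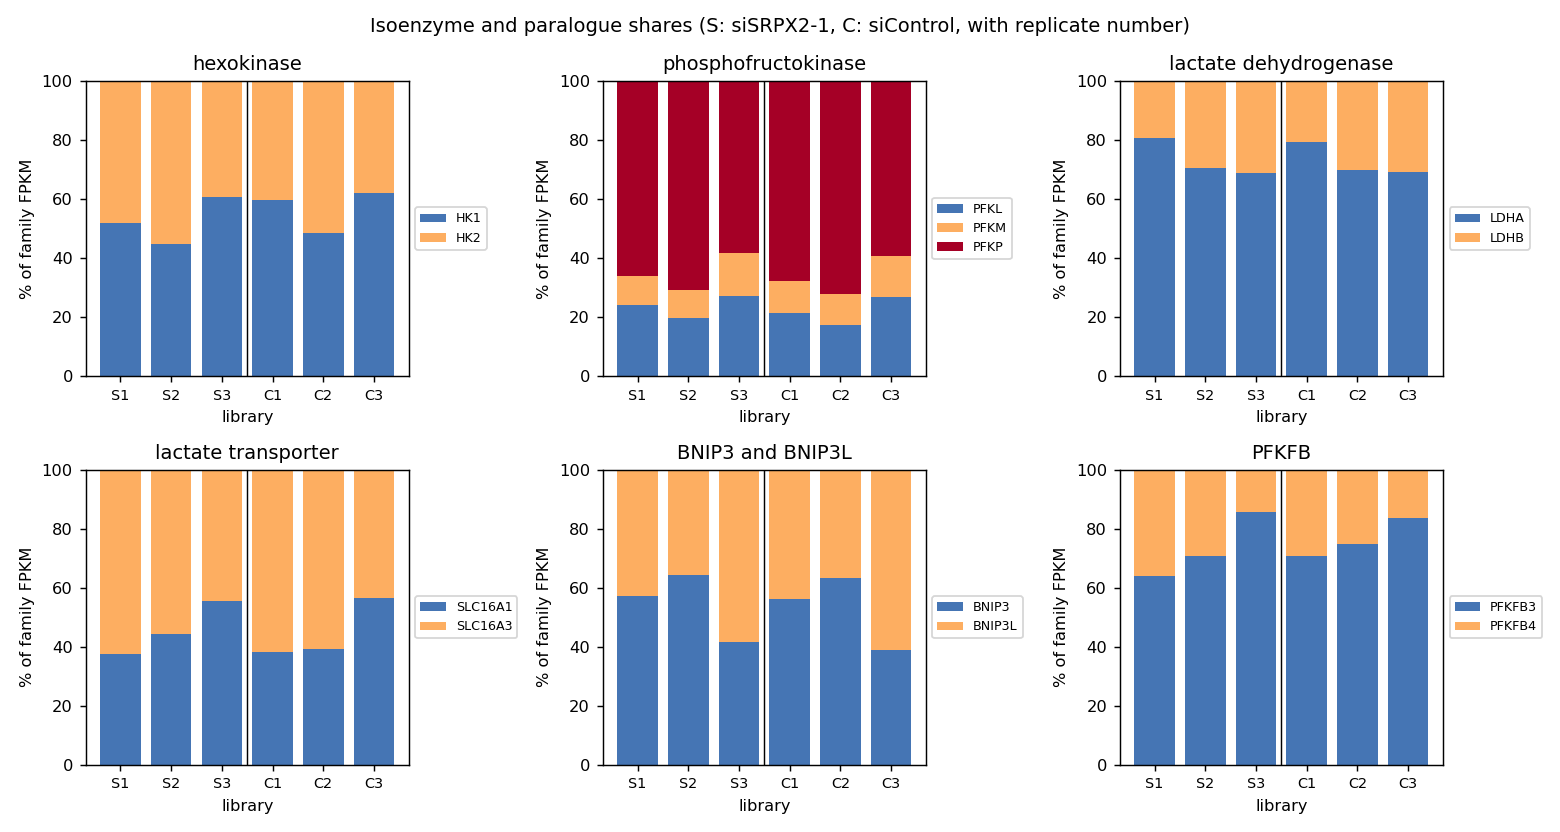
Stacked bars of each isoenzyme or paralogue as a percent of the FPKM of its family, for 6 families, in siSRPX2-1 replicates 1 to 3 (S1 to S3) and siControl replicates 1 to 3 (C1 to C3). The LDHA share is highest in S1 and C1 (80.8% and 79.3%), and the HK2 share in S2 and C2 (55.2% and 51.4%).

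Replicate 2 was then compared with the mean of replicates 1 and 3. Of the 37 genes 17 were higher (25.4% of all tested genes) and 8 were lower (25.5% of all tested genes). HK2 was higher, with 44.5 FPKM in siSRPX2-1 replicate 2 and 37.0 FPKM in siControl replicate 2, against 11.2 to 34.3 FPKM in the other 4 libraries (log2 fold change 0.99, standard error 0.0590, adjusted p = 1.19e-05, edgeR). LDHB was higher as well, at 0.43 (standard error 0.0672, adjusted p = 0.000974, edgeR). These were the 2 genes whose replicate 2 libraries both lay above the other 4 (27.6% of all tested genes). EGLN3, BNIP3, SLC2A1 and NDRG1 had log2 fold changes of 1.17, 0.58, 0.49 and 0.43 (adjusted p = 9.23e-05, 7.44e-05, 0.000228 and 0.000557, edgeR). Among the lower genes EPAS1 was at −0.73 (standard error 0.0716, adjusted p = 8.88e-05, edgeR), CA12 at −0.55, HIF1A at −0.52, BNIP3L at −0.33 and VEGFA at −0.30 (adjusted p = 0.00772, and 0.0554 without siSRPX2-1 replicate 2, edgeR). GAPDH was at −0.01 (adjusted p = 0.951, edgeR).

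This average hid opposite sides for most genes. Against replicate 1 alone, replicate 2 was higher for 2 genes (21.8% of all tested genes), HK2 and LDHB, and lower for 26 (24% of all tested genes). Against replicate 3 alone it was higher for 25 (24.1% of all tested genes) and lower for 2 (24% of all tested genes), EPAS1 and HIF1A. BNIP3 was at −0.29 against replicate 1 (adjusted p = 0.00715, edgeR) and at 1.45 against replicate 3 (adjusted p = 7.08e-06, edgeR). NDRG1 was at −0.72 and 1.57 in the same comparisons (adjusted p = 0.000127 and 7.36e-06, edgeR).

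The study compared siSRPX2-1 with siControl by DESeq2, with cutoffs on the false discovery rate and the fold change, and reported genes that decreased. Here the 2 groups were compared with edgeR without a covariate, at an adjusted p under 0.05 alone. This fit called none of the genes described here. Of the 37 genes 0 were higher and 0 were lower, as were 0% of all tested genes in either direction. With edgeR 0 of the 37 had an unadjusted p under 0.05, and DESeq2 and limma also called 0. Fold changes were positive for 16 and negative for 21 genes, with a median log2 of −0.00. The lowest p was that of HIF1A, with 84.5 ± 12.9 FPKM after siSRPX2-1 and 100.2 ± 26.7 FPKM after siControl (SD, n = 3 each; log2 fold change −0.28, standard error 0.247, adjusted p = 0.99997, edgeR). In no gene did the 3 siSRPX2-1 libraries lie all above (1.58% of all tested genes) or all below the 3 siControl libraries (1.65%).

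With the replicate number as a block, so that same-numbered libraries are compared, the standard errors were smaller and again 0 genes were called, by edgeR and by DESeq2. In that fit 0.0225% of all tested genes were higher and 0.0225% lower. At an unadjusted p under 0.05 edgeR gave 2 higher genes (4.32% of all tested genes), HK2 and PFKL, and 2 lower genes (4.89%), PFKFB3 and HIF1A. HK2 differed by 0.24, 0.28 and 0.10 (log2, siSRPX2-1 minus siControl) in pairs 1, 2 and 3, with a log2 fold change of 0.21 (standard error 0.0574, adjusted p = 0.440, edgeR). PFKL differed by 0.22, 0.23 and 0.03, with a log2 fold change of 0.16 (adjusted p = 0.522, edgeR). HIF1A differed by −0.54, −0.17 and −0.04, and its log2 fold change was −0.25 (standard error 0.0915, adjusted p = 0.516, edgeR). PFKFB3 was at −0.25 (standard error 0.0853, adjusted p = 0.495, edgeR), and without pair 3 it was the 1 gene called, at −0.37 (adjusted p = 0.0248, edgeR with the block). That fit called 0.924% of all tested genes higher and 0.676% lower, 1.6% in all. The sign was positive in 3 of 3 pairs for 5 genes (PKM, GAPDH, VEGFA, PFKL and HK2, 15.5% of all tested genes) and negative in 3 of 3 for 7 genes (16.9% of all tested genes). Most pair differences were small. Within pairs 1, 2 and 3 the median was −0.00, 0.00 and −0.03, and 21, 21 and 26 of the 37 genes lay within 0.1 of 0.

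**Figure D5:**
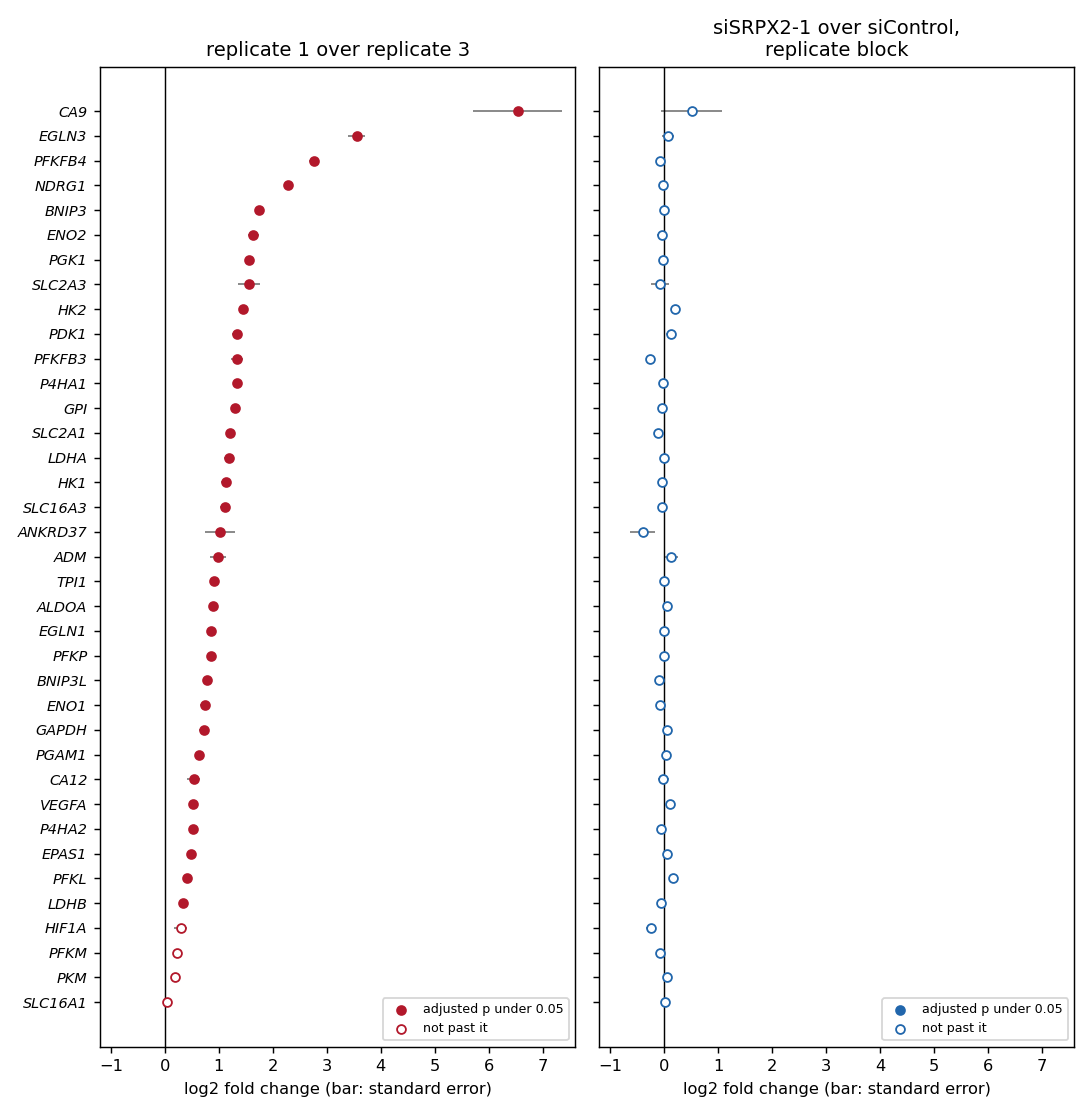
Log2 fold changes with standard errors (bars) of the 37 tested genes, for replicate 1 over replicate 3 (left) and siSRPX2-1 over siControl with the replicate block (right), on the same scale. Filled points have an adjusted p under 0.05, which 33 genes reach on the left and 0 on the right. CA9 and SLC2A3, filled on the left, passed the filter only through replicate 1. The fitted value of CA9 on the left rests on 4 and 0 reads in replicate 3.

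Lists of related genes outside the 38 were read in the same fits. Of 28 tested further hypoxia targets, 21 were higher in replicate 1 than in replicate 3 (8.81% of all tested genes) and 1 was lower (7.3%), and the list had a median log2 value of 0.72. PLIN2, a lipid droplet coat protein, was at 2.15 and ANGPTL4, a secreted lipase inhibitor, at 2.42 (adjusted p = 4.31e-06 and 1.21e-05, edgeR), with GBE1 at 1.20 and AK4 at 1.03. The same list was 3 higher (25.4% of all tested genes) and 12 lower (25.5%) for replicate 2 against replicates 1 and 3, with PLIN2 at −1.66, WSB1 at −1.72, CITED2 at −1.53 and STC2 at −1.23. Of 10 tested oxygen sensing genes 0 were higher in replicate 1 than in replicate 3 (0 also at an unadjusted p under 0.05, edgeR) and 1 was lower, the coactivator CREBBP at −0.34 (adjusted p = 0.0472, edgeR). Further glycolysis and pyruvate genes were 2 higher and 3 lower of 25, shares near those of all tested genes (8.81% and 7.3%), with PDK3 at 0.86 and HKDC1 at −0.48. For siSRPX2-1 against siControl 0 genes of these 3 lists were called by edgeR, and 0 had an unadjusted p under 0.05. With the replicate block 0 were called as well. At an unadjusted p under 0.05 that fit gave 0 higher and 7 lower of the 25 further glycolysis and pyruvate genes, where all tested genes were at 4.32% and 4.89%. Of these 25 fold changes 5 were positive and 20 negative, with a median log2 of −0.15. The further hypoxia targets were 3 higher and 4 lower of 28, and the oxygen sensing genes 0 and 0 of 10, at the same unadjusted p.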

How the data were processed

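RNA of 6 TPC1 libraries was sequenced on an Illumina NovaSeq. The authors deposited unnormalized counts of reads per gene. They also deposited FPKM from StringTie 2.1.6 with ballgown. DESeq2 and edgeR appear in the submitters' processing notes. Aligner, genome build, annotation and strand of counting: not given in the sources used here. All 38 gene IDs were found in GENCODE release 29 with starts within 100000 bases, so promoters were taken from RefSeq on GRCh38.p14. Samples were grouped by their titles.

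Counts were tested with edgeR 4.0.16 in R 4.3.3 (TMM, glmQLFit and glmQLFTest) over the 13317 genes whose FPKM averaged 0.5 or more, with Benjamini-Hochberg adjustment over all of them. The siRNA comparison had no covariate, and the replicate comparisons had siRNA as covariate. Levels of different genes are compared in FPKM, which is per length. Alternatives were other size factors, scaling to GAPDH, other filters, DESeq2 1.42.0, limma 3.58.1 on log2(FPKM + 1) or log2(FPKM + 0.1), the replicate block and leaving out each library. DESeq2 with the block and leaving out whole pairs were added after seeing the data. The genes and lists were chosen with earlier results of these data known. Values per library were given for HIF1A, EPAS1, VEGFA, the carbonic anhydrases, GAPDH, the transporters, the isoenzyme families and the 6 genes of smallest p in each comparison, and, of the lists, for genes among the 4 of smallest p. Others were added after their values were seen.

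The pairing check is given with the results, and rests on the data and on the numbers in the titles. Every 2 libraries differed beyond sampling noise (14.5 to 335 in chi-square for each gene), and none was treated as a repeat. Scripts were tested on simulated data. Intervals are exact Clopper-Pearson at 95%, and like the floor of 3 reads they cover counting error only. P-values measure the spread between these libraries that the fitted terms leave. A replicate comparison has 2 libraries for each number, from the 2 siRNA groups. Its p-values rest on how far the replicate differences varied between these groups. They do not measure the spread that repeats of a replicate number would show. Figures were drawn with matplotlib 3.10.9.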

Additional observations from a re-analysis of the deposited data

Results flagged for a closer look

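In 4 cases the same replicate difference had opposite signs in the siRNA groups. None of these differences was tested. CA9 was 1.03 log2 units lower in replicate 2 than in the mean of replicates 1 and 3 within siSRPX2-1 (−1.03) and 1.06 higher within siControl, a difference of −2.09 between the groups, at 19 and 34 reads in the replicate 2 libraries of siSRPX2-1 and siControl. SLC16A1 was at 0.16 within siSRPX2-1 and −0.01 within siControl in that contrast (difference 0.17), and at 0.07 and −0.01 for replicate 1 minus replicate 3 (difference 0.0740). P4HA1 was at 0.05 within siSRPX2-1 and −0.03 within siControl for replicate 2 against the others (difference 0.0774).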

How the results depend on the processing

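For replicate 1 against replicate 3, 499 of 551 single-gene values under the alternatives kept their direction and side of the threshold, 34 were no longer called, 3 became called and 15 reversed. Called genes numbered 25 without the expression filter, where 396 of 31348 genes were called in all, against 1173 higher and 972 lower of 13317. Scaling to GAPDH reversed HIF1A (−0.43), EPAS1 (−0.23), VEGFA (−0.20), CA12 (−0.19), P4HA2 (−0.21), PFKL (−0.31), PFKM (−0.50), PGAM1 (−0.0879), PKM (−0.54), LDHB (−0.38) and SLC16A1 (−0.69). SLC16A1, which was not called, was also at −0.00343 with upper quartile scaling and at −0.0183 and −0.0188 with limma, and ranged from −0.0436 to 0.102 with libraries left out. For replicate 2 against replicates 1 and 3, the main fit called 17 genes higher and 8 lower, beside 25.4% and 25.5% of all tested genes. GAPDH, not called, was at 0.0535 without the filter, 0.0724 and 0.0725 with limma and 0.35 against replicate 3 alone. Against replicate 1 alone BNIP3 (−0.29), EGLN3 (−0.60), SLC2A1 (−0.11), NDRG1 (−0.72) and SLC16A3 (−0.18) reversed, and BNIP3L (0.0578) reversed against replicate 3 alone. The single replicate comparisons and those without a library use fewer samples by construction, the GAPDH scaling shifts every gene by about the fold of GAPDH (85.2% of all genes were called), and the cause of the other reversals was not tested. For siSRPX2-1 against siControl 0 genes were called under all alternatives except the fit with the block without pair 3, which called 1 gene, PFKFB3, and 1.6% of all genes tested. The replicate block changed no other call. With libraries left out the uncalled fold changes crossed 0 for PFKL (−0.0205 to 0.31), VEGFA (−0.12 to 0.29), GAPDH (−0.15 to 0.25), HK2 (−0.11 to 0.61), SLC2A1 (−0.40 to 0.18), PFKFB3 (−0.68 to 0.19) and PFKM (−0.16 to 0.0165). Shares computed from reads without dividing by length moved by more than their SD for 10 of 27 genes, with means of 81.5% for HIF1A, 18.5% for EPAS1, 64.4% for P4HA1, 35.6% for P4HA2, 31% for PFKL, 56.2% for PFKP, 84.5% for LDHA, 15.5% for LDHB, 32.4% for SLC16A1 and 67.6% for SLC16A3. Depth limits CA9, ALDOC, SLC2A3 and ANKRD37, which had a mean below 1 FPKM.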
